A study of Emberiza melanocephala with 4 samples.

Results

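In RNA labelled as testis of the black-headed bunting (Emberiza melanocephala), a migratory songbird, 515 of 21189 transcribed loci were abundant in 3 libraries while the fourth, from the Sensitive state, listed no transcript there. The study sequenced 4 libraries, and the labels give each its own testicular state, called Sensitive, Early Stimulated, Late Stimulated or Refractory. Every library is labelled as testis of birds caught from the wild. The labels used here give no age, day length, date or number of birds behind a library. In seasonally breeding birds, gonads in the sensitive state respond to lengthening days with growth, and those in the refractory state have stopped responding.

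A locus here is a set of transcripts whose exons overlap on the same strand in any of the 4 libraries, with unstranded transcripts joining either strand. Its level in a library is the summed FPKM of its transcripts (fragments scaled to transcript length and to library size). The 515 loci were those at 60 FPKM or more in each of the Early Stimulated, Late Stimulated and Refractory libraries with no listed transcript in Sensitive. The loci were thus chosen by their FPKM in these 3 libraries and by the missing Sensitive transcript, so the levels and the absence are a description and not a result. Of 2383 loci at 60 FPKM or more in the 3 libraries, 21.6% had no Sensitive transcript and 1868 had one. Those 1868 loci, called the listed loci below, serve as the comparison. The same rule with another library as the absent one gave 6 loci for Early Stimulated, 4 for Late Stimulated and 16 for Refractory. In the other direction, 246 loci at 60 FPKM or more in Sensitive had no transcript in the other 3 libraries.

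With 1 library per state there was no replicate check and no test, and the differences below describe these libraries only. The Sensitive library was the shallowest, at 120.5 Mb of aligned bases, against 200.8, 428.4 and 318.1 Mb in the Early Stimulated, Late Stimulated and Refractory libraries. Reference-matched transcripts were listed at lower levels, but those that match no reference gene were listed from a coverage of 2.5 upwards, which corresponds to 20.8 FPKM in Sensitive and to 12.5, 5.84 and 7.86 FPKM in the other libraries in the same order. The level of 60 FPKM was thus 2.89 times the Sensitive listing floor of unmatched transcripts. Depth and state cannot be told apart here. An unlisted locus is not a measured 0, and in whole tissue fewer cells of a type and less RNA per cell cannot be told apart either.

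The named loci among the 515 included parts of 2 systems of nervous tissue, light detection and inhibitory transmission. Vertebrate photoreceptors absorb light through opsins, which activate the G protein transducin. Transducin activates a phosphodiesterase that lowers cyclic GMP, and calcium-binding activator proteins then let guanylate cyclase restore it. Inhibitory neurons make the transmitter GABA with glutamate decarboxylases, and receiving cells respond through receptors for it. Neither system defines the testis, where germ cells, Sertoli cells and Leydig cells are the defining types. Photoreceptor and neuronal genes, given below, were abundant in 3 of the libraries labelled as testis, the same ones in which the rule asked for a high level. Whether the tissue labels hold was not tested. Few germ, Sertoli and Leydig cell genes were named in any of the 4 libraries. Only 93 of 467 list symbols were named in any library, however, so a gene without a name is not shown to be absent. In Sensitive, 8 of 18 genes of trunk and gonadal mesoderm were named, with a summed level of 792 FPKM. The libraries are therefore called by their labels, and a difference in tissue between Sensitive and the others cannot be told apart from one in testicular state.

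Most of the 515 loci carried no gene name. A match to the reference annotation, which comes from the collared flycatcher (Ficedula albicollis), another songbird, was present at 39 loci, and 30 of these had a gene symbol. The share without a Sensitive transcript was 11.0% among the 272 loci with a symbol at 60 FPKM or more and 23.1% among the 2061 loci with no reference match. Coordinates are those of the flycatcher assembly FicAlb_1.4. The grouping of the 30 symbols by role below was made after their values were seen.

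Several of the named loci encode parts of the phototransduction cascade or of its G protein signalling. PDE6H, the inhibitory subunit of the cone phosphodiesterase, stood at 188, 183 and 209.7 FPKM in the Early Stimulated, Late Stimulated and Refractory libraries, the order kept for all values below, at scaffold JH603173.1, 15872495 to 15879359. GUCA1C, a guanylate cyclase activating protein, stood at 136, 149 and 188 FPKM. RD3L, a relative of the retinal guanylate cyclase regulator RD3, stood at 381, 466 and 509 FPKM. These 3 loci were close to level across the libraries, with a highest over lowest value of 1.15, 1.38 and 1.34.

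PDC and a pair of G protein subunits were lowest in Late Stimulated. PDC, phosducin, which binds transducin's beta and gamma subunits in photoreceptors, had 201, 79.1 and 238 FPKM at JH603197.1, 7908299 to 7912924. GNB3, the beta subunit of cone transducin, had 78.5, 60.6 and 173 FPKM at JH603259.1, 921712 to 926523. GNG13, a G protein gamma subunit known from ON bipolar cells of the retina and from taste cells in mammals, had 121, 90.6 and 274 FPKM at JH603203.1, 183602 to 184268. Refractory exceeded Late Stimulated by 1.58 for PDC, 1.5 for GNB3 and 1.59 for GNG13 on the log2(FPKM + 1) scale. PDC was also lower in Late Stimulated than in Early Stimulated by a log2 difference of -1.33. RGS7, which switches off G protein signals in neurons, had 163, 145 and 285 FPKM.

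A sum over transcripts grows when a locus is split into several short ones, each with its own length in the FPKM. A second measure uses 1 length per locus. It divides the covered bases of all transcripts in a locus by the locus's total exon length, and is called exon coverage, in FPKM units. PDC kept nearly identical values on it, at 200.4, 79.0 and 237 FPKM, and GNG13 kept identical ones. GNB3 had 75.1, 41.8 and 94.1 FPKM on exon coverage, and its Refractory value then exceeded that of Late Stimulated by 1.15. For RGS7, whose locus holds 10 transcripts over the files, exon coverage was 71.9, 84.3 and 87.7 FPKM, so most of its higher sum in Refractory was not seen there.

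Other photoreceptor genes did not reach the rule, through their level or through a Sensitive transcript. Of the 51 genes on the list for photoreceptors and the visual cycle, 15 were named in any library, 6 reached 60 FPKM in all 3 libraries, and 4 of these (PDE6H, GUCA1C, PDC and GNB3) had no Sensitive transcript. GNB1, the transducin beta subunit of rods and a subunit in many other cells, had 364 FPKM in Sensitive. GNAT2, the cone transducin alpha subunit, had no Sensitive transcript and 394 and 149.8 FPKM in Early Stimulated and Refractory, but 59.8 in Late Stimulated. The whole list summed to 390 FPKM in Sensitive, most of it GNB1, and to 3712, 1980.5 and 3226 FPKM in the other libraries.

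Both glutamate decarboxylase genes of GABA synthesis were among the loci. GAD1, a glutamate decarboxylase, had 582, 140.2 and 308 FPKM at JH603391.1, 112150 to 143828, where 17 exons were assembled. GAD2, the other glutamate decarboxylase, had 124, 157 and 246 FPKM at JH603175.1, 13500378 to 13539350. The GAD1 differences depended on the measure. On exon coverage GAD1 had 171, 142 and 91.3 FPKM, with its lowest value in Refractory and not in Late Stimulated. GAD2 had the same order of libraries on both measures, with 89.6, 111 and 126 FPKM on exon coverage.

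GLRA2, a glycine receptor subunit, had 61.7, 79.3 and 164 FPKM, and 60.5, 77.7 and 74.8 FPKM on exon coverage, so its high Refractory value was seen only as a sum. CHRNB3, a nicotinic acetylcholine receptor subunit, had 434, 106 and 589 FPKM, one of the widest spreads among the symbols. On exon coverage its values were 147, 102 and 158 FPKM, still lowest in Late Stimulated but within 2-fold. SLC1A3, a glutamate transporter typical of Mueller glia and astrocytes, had 129, 116 and 78.6 FPKM. GJD2, the connexin of electrical synapses, had 75.6, 61.1 and 70.0 FPKM. Of the 36 genes on the list for transmitters, their receptors and transporters, 10 were named, 8 reached 60 FPKM in the 3 libraries, and 6 of these had no Sensitive transcript. The exceptions were ABAT, the GABA-degrading transaminase, with 63.0 FPKM in Sensitive, and the glutamate receptor subunit GRIA4, with 1.05 FPKM there.

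Neuronal structure and synapse genes made up the largest list among the symbols, with 7 loci. TAGLN3, an actin-binding protein of neurons, had 461, 524 and 864 FPKM, the highest mean of any locus with a symbol by summed FPKM. On exon coverage it had 301, 338 and 361 FPKM, below RD3L in each library and below ACBD7 in Early Stimulated and Refractory. SH3GL2, endophilin A1 of synaptic vesicle recycling, had 261, 261 and 282 FPKM. CPLX4, a complexin of retinal ribbon synapses, had 91.6, 107 and 88.9 FPKM. The latter pair differed little between libraries, and STMN2, a microtubule regulator of growing axons, was as steady, with 100.5, 93.2 and 102 FPKM. ELAVL4, a neuronal RNA-binding protein, had 127, 162 and 140.4 FPKM. SPOCK3, a proteoglycan of the nervous system, had 199, 181 and 175 FPKM. CRMP1, a growth cone protein, varied more, with 150.4, 90.0 and 152 FPKM.

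Of the 68 genes on the list for neurons and synapses, 15 were named and 10 reached 60 FPKM in the 3 libraries. The remaining 3 were listed in Sensitive at low levels: UCHL1 at 48.4 FPKM, ENO2 at 34.0 and SCG3 at 32.0. CALB2, calretinin, a calcium-binding protein of neurons, had 629, 235 and 336 FPKM, and 341, 235 and 333 on exon coverage. CALB1, calbindin, would have joined it but for its Refractory value of 59.81 FPKM, just under the limit.

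The other symbols given here mix genes of wider roles with some known from neurons. ACBD7, an acyl-CoA-binding protein, had 608, 314 and 793 FPKM, with Refractory above Late Stimulated by 1.33 on both measures. FABP5, a fatty acid-binding protein, had 332, 74.2 and 368 FPKM, but 101, 75.8 and 114 on exon coverage. NOL4 had 144, 294 and 60.5 FPKM as a sum, and 70.0, 40.4 and 58.0 on exon coverage. Late Stimulated thus went from highest to lowest, while Early Stimulated stayed above Refractory. Exon coverage also changed the picture for FGF12, a modulator of neuronal sodium channels. It had 156, 121 and 151 FPKM as a sum and 62.5, 29.7 and 99.4 on exon coverage. SLC4A10, a bicarbonate transporter of neurons, had 199.5, 140.1 and 102 FPKM. LAPTM4B, a lysosomal membrane protein, was highest in Late Stimulated, with 134, 206 and 126 FPKM. Of the 30 symbols, 27 were at 60 FPKM or more on exon coverage in all 3 libraries.

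**Figure D1:**
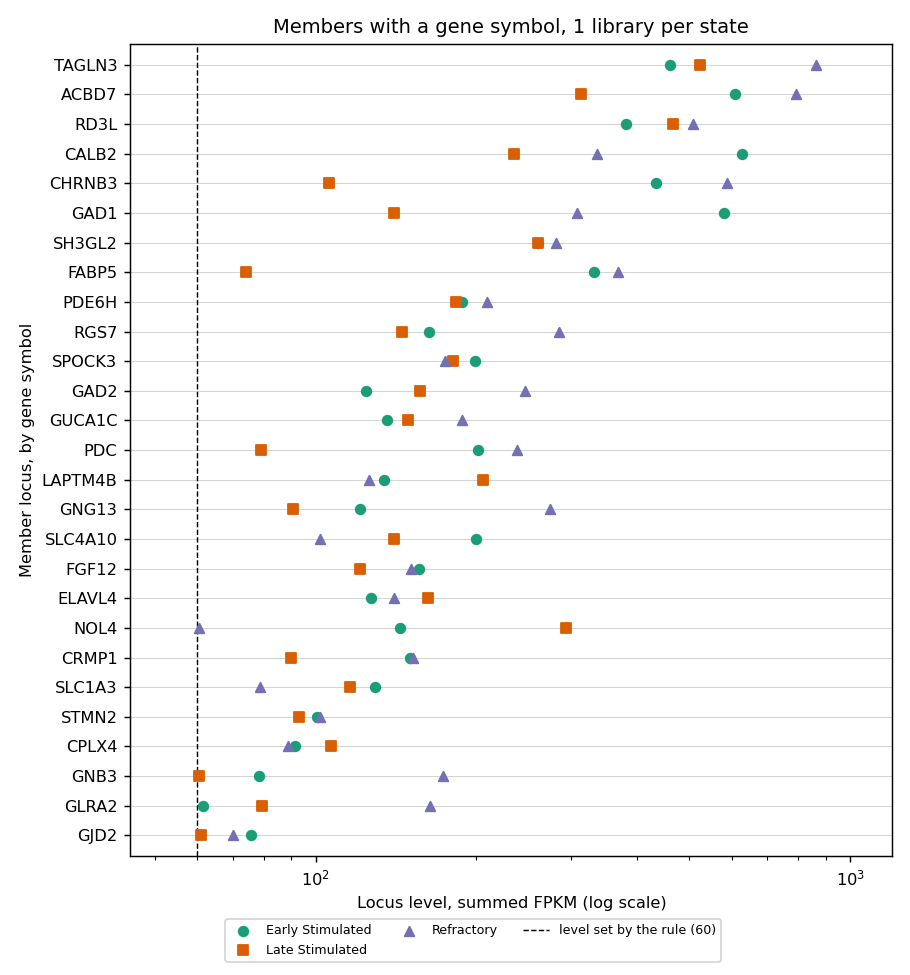
Summed FPKM (log axis) of 27 of the 30 loci with a gene symbol in the Early Stimulated, Late Stimulated and Refractory libraries, 1 point per library, ordered by geometric mean. The dashed line is the 60 FPKM of the rule; PDE6H, SH3GL2 and STMN2 have nearly coincident points, while CHRNB3 and FABP5 have a highest over lowest value of 5.58 and 4.96.

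The share without a Sensitive transcript, 11.0% over all loci with a symbol at this level, can be read beside lists of other functions. None of the 5 named glycolysis genes was without a Sensitive transcript, although all 5 reached 60 FPKM in the other libraries. The same held for the 7 of 8 named ubiquitin and chaperone genes that reached this level, and with so few genes no departure from that share can be read. The neuronal list also holds ENO2 and UCHL1 of these. GAPDH, for example, had 109.6 FPKM in Sensitive against 4091, 1880.3 and 4699 FPKM. Because the lists were chosen with earlier results of these data known, these counts carry no test. In all, 18 of the 30 symbols belonged to at least 1 of 19 lists, which hold 467 symbols, of which 93 were named in any library.

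Few testis markers in the lists were named in any library, and none was named among the 515 loci, most of which have no name. Of 47 germ cell genes, 3 were named (TDRD6, GFRA1 and MEIG1), and their levels summed to 12.9 FPKM in Sensitive and to 17.0, 10.9 and 26.8 FPKM in the others. Of 14 Sertoli cell genes only INHA was named, at 3.81 FPKM in Sensitive, and of 12 Leydig cell genes only TSPO, at 28.3 FPKM in Sensitive, 1.90 in Late Stimulated and 11.8 in Refractory. In contrast, 8 of 18 genes of trunk and gonadal mesoderm were named, and their summed level was 792 FPKM in Sensitive and 60.1, 90.2 and 116 FPKM in the other 3 libraries. Of these, LHX9 had 190 FPKM and NR2F2 356 FPKM in Sensitive, while 6 others, HAND2 and SNAI2 among them, were listed in no other library. Markers of pineal gland, of oligodendrocytes and of pigment epithelium were named in no library, and of 18 lens genes only CRYGS was, at 0.369 FPKM in Refractory. Of these lists, that of trunk and gonadal mesoderm had the largest summed level in Sensitive. INHA and TSPO were also highest in Sensitive, while the germ cell sum was highest in Refractory. How these lists relate to the missing Sensitive transcripts of the 515 loci was not tested.

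Across the 3 libraries, the 515 loci took similar amounts of the RNA. They held 10.9%, 10.4% and 10.6% of the summed TPM, a length-scaled share of all transcripts. Their median levels were 126, 127 and 129 FPKM, close to the 132, 126 and 138 FPKM of the listed loci. The listed loci had a median of 109 FPKM in Sensitive. The lowest of a locus's 3 values was between 60 and 120 FPKM for 348 loci, between 120 and 240 for 125, between 240 and 480 for 32, and 480 or more for 10. The 10 highest loci held 15.4%, 13.6% and 15.5% of the TPM of all 515.

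At the edge of the rule, the loci just inside had a lowest value of 60.08, 60.20, 60.21 and 60.25 FPKM, and none of these 4 had a reference match. Just outside were DPP10, with 59.95, 61.38 and 112.6 FPKM, an unnamed locus at 59.83, CALB1 at 59.81 and an unnamed locus at 59.79.

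The highest loci had no gene name. On scaffold JH603202.1, a single-exon locus at 202997 to 203309 on the plus strand had 4096, 4639 and 4506 FPKM, the highest mean of all. However, a Sensitive transcript lay only 101 bp from this locus, on either strand. Whether it is part of the same gene was not tested. A 207 bp locus at JH603183.1, 10295940 to 10296146, had 1148, 1142 and 1372 FPKM, and a neighbour at 10297701 to 10298078 had 640.3, 539 and 773 FPKM. The nearest Sensitive transcript lay 9088 and 10849 bp from them. The locus at AGTO01014161.1, 820 to 1217, had 809, 869 and 1069.5 FPKM. These 4 short loci without introns kept levels within 1.5-fold across the 3 libraries. A 4-exon locus at JH603177.1, 1288607 to 1305173, on the plus strand differed, with 866, 480 and 1586 FPKM and a log2 difference between Refractory and Late Stimulated of 1.72 on both measures. Another 6-exon locus at JH603193.1, 6349859 to 6361970, had 901, 733 and 519 FPKM as a sum but 158, 144 and 256 FPKM on exon coverage.

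The loci were shorter and simpler than the listed loci, measured over the transcripts of all 4 libraries. Sensitive transcripts could thus lengthen, join or give a strand to listed loci only. A longer locus is also more likely to overlap a Sensitive exon. The contrasts in length, exons and strand therefore follow in part from the rule, and how far was not tested. Every transcript had a single exon at 250 loci (48.5%), against 704 listed loci (37.7%). Their median exonic length was 632 bp, against 1013 bp, and their median span was 1577 bp, against 3961 bp. At 167 loci (32.4%) there were 5 exons or more, against 838 listed loci (44.9%). No strand was given for 207 loci (40.2%), against 602 (32.2%). Exactly 1 transcript in each of the 3 libraries was found at 341 loci (66.2%), against 1087 listed loci (58.2%).

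Read the other way, the share without a Sensitive transcript was 26.2% among the 954 single-exon loci at 60 FPKM or more, 18.5% among the 1429 loci with introns and 16.6% among the 1005 loci with 5 exons or more. By level, it was 22.7% at a geometric mean of 60 to 120 FPKM, 22.7% at 120 to 240 FPKM and 16.9% at 240 FPKM or more. The share was therefore similar over the lower levels and smaller among the highest loci. The shares by exons follow in part from the rule, because Sensitive transcripts could add exons to listed loci only.

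**Figure D2:**
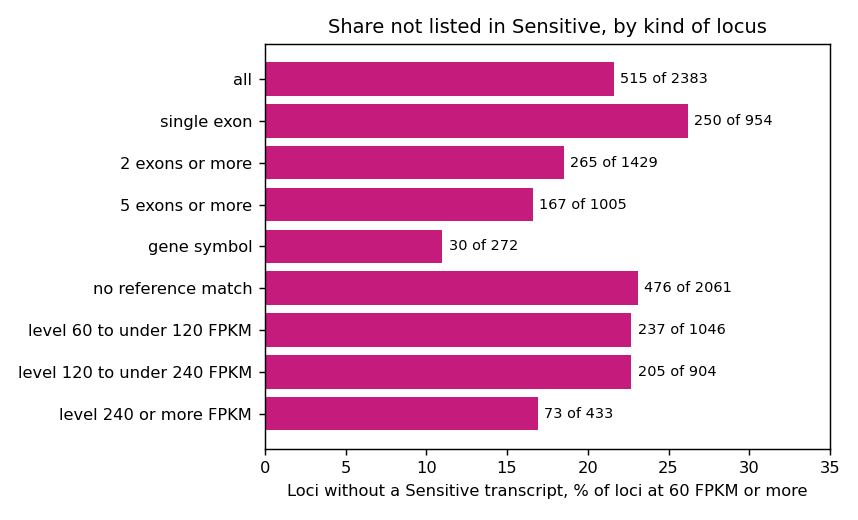
Percent of loci at 60 FPKM or more in Early Stimulated, Late Stimulated and Refractory that had no Sensitive transcript, by kind of locus, with counts beside the bars. The share was 21.6% over all 2383 loci, highest for single-exon loci at 26.2% and lowest for loci with a gene symbol at 11.0%. Sensitive transcripts could add exons to listed loci only, so the split by exons follows in part from the rule.

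Many introns, but not most whole loci, were assembled identically in the 3 libraries. Of 1910 distinct introns at the 265 loci with introns, 1481 (77.5%) had identical ends in all 3 libraries, 220 (11.5%) in a pair of libraries and 209 (10.9%) in 1 library. The listed loci had 84.1% of their introns in all 3 libraries. At least 1 intron was shared by all 3 libraries at 250 of the 265 loci (94.3%), and every intron at 100 (37.7%), against 44.8% of the listed loci with introns. Among loci with 5 exons or more, 142 had no reference match, and 53 of the 63 loci with 10 exons or more had none. The locus with most exons, 30, lay at JH603212.1, 1457008 to 1484130, with 103, 221 and 130.5 FPKM as a sum and 100, 93.1 and 67.5 FPKM on exon coverage, where Late Stimulated was no longer highest. A 29-exon locus with 15 transcripts at JH603195.1, 3026817 to 3196957, had 505, 339 and 623 FPKM as a sum and 168, 181 and 198 FPKM on exon coverage. Neither locus carries a name, so no role is given.

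The surroundings of the loci were also poor in Sensitive transcripts. Another Sensitive transcript lay within 1 kb on either strand of 71 loci (13.8%), against 816 listed loci (43.7%). Within 5 kb the counts were 143 (27.8%) and 1221 (65.4%), and within 20 kb 219 (42.5%) and 1439 (77.0%). The median distance to the nearest such transcript was 27.7 kb, against 1.42 kb. A Sensitive exon on the opposite strand overlapped 1 of the 515 loci. Transcripts were not joined across loci, so one gene assembled in pieces can count as several loci here.

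**Figure D3:**
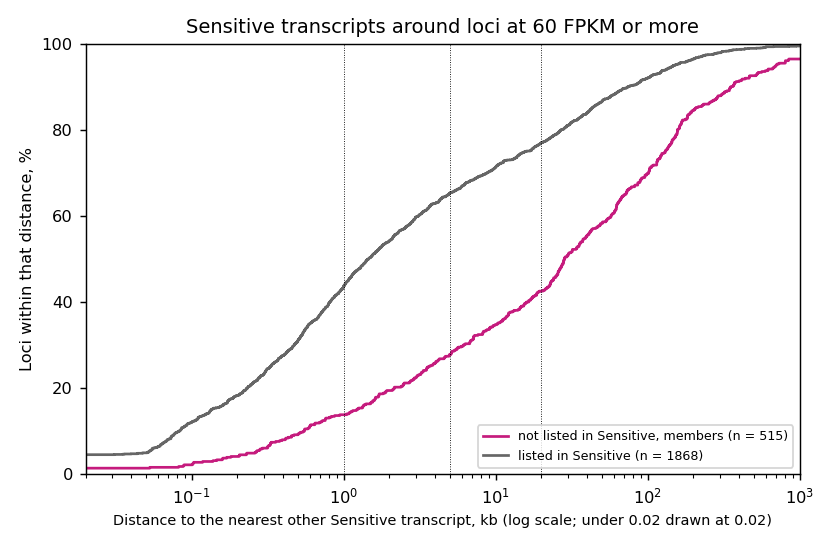
Percent of loci (vertical axis) with another Sensitive transcript within the distance on the horizontal axis (kb, log scale), for the 515 loci not listed in Sensitive and the 1868 listed loci. The dotted lines mark 1, 5 and 20 kb, where the shares were 13.8%, 27.8% and 42.5% for the 515 loci and 43.7%, 65.4% and 77.0% for the listed loci.

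The 515 loci lay on 163 scaffolds, up to 15 on 1 scaffold. Neighbouring was not counted for the listed loci, so the groups below are a description only. Joining loci within 20 kb of each other gave 386 groups, of which 90 held at least 2 loci and 219 loci in all. The largest groups held 5 loci. Of these, the tightest lay at JH603217.1, 5097141 to 5102147, with values from 61.3 to 224 FPKM over the 3 libraries. Another at JH603226.1, 4763479 to 4770776, ranged from 64.4 to 553 FPKM, and one at JH603187.1, 2512144 to 2544582, from 83.8 to 347 FPKM. A group is not a stretch free of Sensitive transcripts. Within the group at JH603217.1 one lay 539 bp from the locus at 5098021, and at JH603226.1 one lay 1713 bp from that at 4768206. For the locus at JH603187.1, 2512144, the nearest lay 89369 bp away.

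Some unnamed loci lay just past the 3′ end of named genes. Of 476 loci without a reference match, 39 (8.19%) began within 5 kb past the 3′ end of a gene's reference-matched transcripts, and 3 lay within 5 kb before a 5′ end. Among listed loci without a match the counts were 127 of 1574 (8.07%) and 28, so the position past 3′ ends was about as frequent there. Of the 39 loci, 36 had a single exon and no strand. They lay beside 34 genes, and the gene's own locus was also one of the 515 for 9 genes and was listed in Sensitive for 10. In 27 of 39 cases the unnamed locus stood above the gene's own locus in all 3 libraries. The rule asked for 60 FPKM or more of the unnamed loci and set no level for the genes, so this count follows in part from the rule. It was not made for the listed loci. Whether an unnamed locus belongs to the transcript of its neighbouring gene was not tested.

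Abundant loci lay past G protein genes. A 425 bp locus 0.483 kb past GNB3 had 579, 444 and 721 FPKM, against 78.5, 60.6 and 173 FPKM for GNB3. It was above the named gene in every library. Past GNAI3, an inhibitory G protein alpha subunit, a 273 bp locus at 0.282 kb had 583, 377 and 662 FPKM, although GNAI3 itself was listed in Sensitive at 141 FPKM.

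Genes of GABA synthesis had such neighbours too. A locus 1.22 kb past GAD2 had 270.3, 373 and 254 FPKM and a second one at 2.13 kb had 200.2, 301 and 176 FPKM. Past GAD1, at 1.87 kb, a locus had 372, 276 and 204 FPKM. This order, highest in Early Stimulated and lowest in Refractory, is that of GAD1 on exon coverage and not that of its summed FPKM. A further locus on this scaffold, at 148893 to 149293 and beyond the 5 kb, did not share it. It had 127, 501 and 144 FPKM, highest in Late Stimulated. The neighbours of GAD2 did not share the order of their gene. They were lowest in Refractory, where GAD2 itself was highest on both measures.

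Some regulators of nerve and retinal cells were named at low levels, with unnamed loci at 60 FPKM or more, as the rule asks, past their ends. NEUROD1, a transcription factor of neuron differentiation, had 0.704, 0.211 and 0.714 FPKM under its name, and its neighbours at 0.618 and 0.136 kb had 212, 315 and 207 FPKM and 121, 185 and 204 FPKM. MAFA, a leucine zipper transcription factor, had 3.02, 1.91 and 3.23 FPKM, and its neighbour at 0.955 kb had 313, 174 and 249 FPKM. For SIX6, an eye field transcription factor, the neighbour at 0.674 kb had 80.5, 110.1 and 124 FPKM, while the gene's own value was at most 2.91 FPKM. In each of these cases the gene's own locus had no Sensitive transcript. THRB, a thyroid hormone receptor needed for cone opsin patterning in mice, had 32.7, 30.8 and 14.8 FPKM. Its neighbours at 3.76 and 4.81 kb had 243, 163 and 228 FPKM and 103, 157 and 115 FPKM. No gene of the list of 36 retinal neuron regulators was itself among the 515 loci. Of the 8 that were named, MEIS1 alone reached 60 FPKM in the 3 libraries, with 78.1, 146 and 180.2 FPKM, and it had 181 FPKM in Sensitive. NEUROD6 was listed in Sensitive as well, at 1.65 FPKM.

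**Figure D4:**
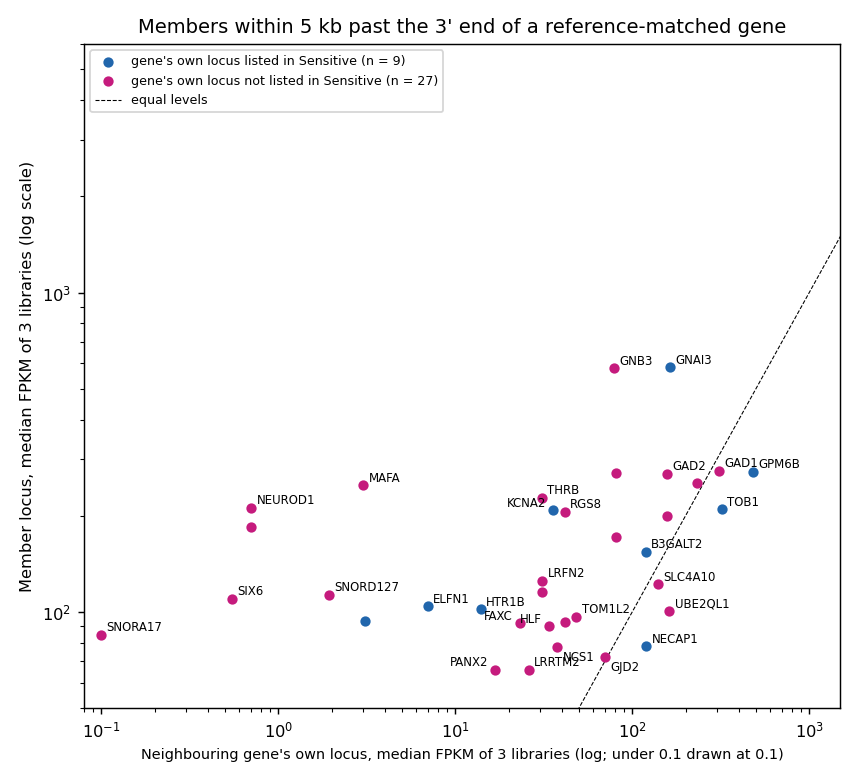
Median FPKM over the 3 libraries of 36 of the 39 unnamed loci within 5 kb past the 3′ end of a reference-matched gene (vertical, log axis) against the median of that gene's own locus (horizontal, log axis), labelled at the highest locus of each gene with a symbol. Points above the dashed line of equal levels are loci above their gene; for 9 points the gene's own locus was listed in Sensitive, GNAI3 among them.

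Between states, most of the 515 loci differed little. The highest of the 3 values was under 2-fold above the lowest at 394 loci (76.5%), against 76.1% of the listed loci, and the median ratio was 1.55, against 1.51. The highest value fell in Early Stimulated for 134 loci (26.0%), in Late Stimulated for 192 (37.3%) and in Refractory for 189 (36.7%). Among the listed loci the shares were 26.4%, 32.3% and 41.3%. The rank correlation of levels across the 515 loci was 0.67 between Refractory and Early Stimulated, 0.65 between Late and Early Stimulated and 0.49 between Refractory and Late Stimulated. The listed loci gave 0.75, 0.70 and 0.61. These correlations are over loci of the same libraries, chosen at 60 FPKM or more, and loci are not independent.

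Late Stimulated was higher than Early Stimulated by 2-fold or more at 25 of the 515 loci (4.85%) and lower at 27 (5.24%), with a median log2 difference of 0.02. Over all 12146 loci listed in both libraries, 5.3% were higher and 12.5% lower. Among the listed loci at 60 FPKM or more, 4.07% were higher and 6.48% lower. The 515 loci were thus close to the listed loci of similar level. On exon coverage the counts were 9 higher and 10 lower, with 5 and 6 called the same way on both measures. Calls on both measures made up 1.44% higher and 4.2% lower over all loci, and 0.375% and 1.39% among the listed loci. The background on exon coverage was 4.31% higher and 5.37% lower over all loci, and 1.12% and 1.87% among the listed loci. A 401 bp locus at JH603391.1, 148893 to 149293, which lies on the scaffold of GAD1, had 127, 501 and 144 FPKM, with a log2 difference of 1.97 on both measures.

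Refractory was higher than Late Stimulated at 48 loci (9.32%) and lower at 39 (7.57%), with a median log2 difference of 0.00. Over all 13241 loci listed in both libraries 16.0% were higher and 8.87% lower, and among the listed loci 11.0% were higher and 4.87% lower. On exon coverage 32 loci were higher and 28 lower, of which 23 and 19 were called on both measures. Such calls made up 7.82% higher and 5.14% lower over all loci, and 4.6% and 2.14% among the listed loci. The background on exon coverage alone was 10.2% in either direction over all loci, and 5.73% higher and 3.53% lower among the listed loci. Among the 30 symbols, PDC, GNG13, GNB3 and ACBD7 were higher in Refractory on both measures. By summed FPKM only, loci with introns were higher at 36 and lower at 21 of 265, and single-exon loci were higher at 12 and lower at 18 of 250. This split was not made on exon coverage or for the listed loci, so no contrast between the kinds of locus is read from it.

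Some of the widest contrasts were those with Late Stimulated as the lowest library. A 5-exon locus at JH603177.1, 1698011 to 1707022, had 395, 135 and 815 FPKM, with log2 differences between Refractory and Late Stimulated of 2.58 as a sum and 1.17 on exon coverage. At JH603183.1, 14461881 to 14462303, a 423 bp locus had 419, 144 and 736 FPKM, with 2.34 and 1.75. The opposite order was seen at JH603205.1, 4158538 to 4160410, which had 99.8, 504 and 67.6 FPKM. Its difference between Refractory and Late Stimulated was -2.88 as a sum and -1.52 on exon coverage.

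Refractory was higher than Early Stimulated at 27 loci (5.24%) and lower at 20 (3.88%). The background was 7.65% higher and 7.93% lower over all 11525 loci listed in both libraries, and 5.19% and 4.01% among the listed loci. On exon coverage 9 loci were higher and 11 lower, against 3.9% and 5.31% over all loci and 1.28% and 1.12% among the listed loci. On both measures 6 loci were higher and 5 lower, against 2.06% and 3.18% over all loci and 0.642% and 0.589% among the listed loci. GNG13 was the symbol with the same call on both measures, at a log2 difference of 1.17. Of the 515 loci, 50 differed by 2-fold or more on both measures in at least 1 of the 3 comparisons (9.71%), against 7.71% of the listed loci and 17.5% of all 11065 loci listed in the 3 libraries. The comparisons share libraries, so their counts are not independent.

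**Figure D5:**
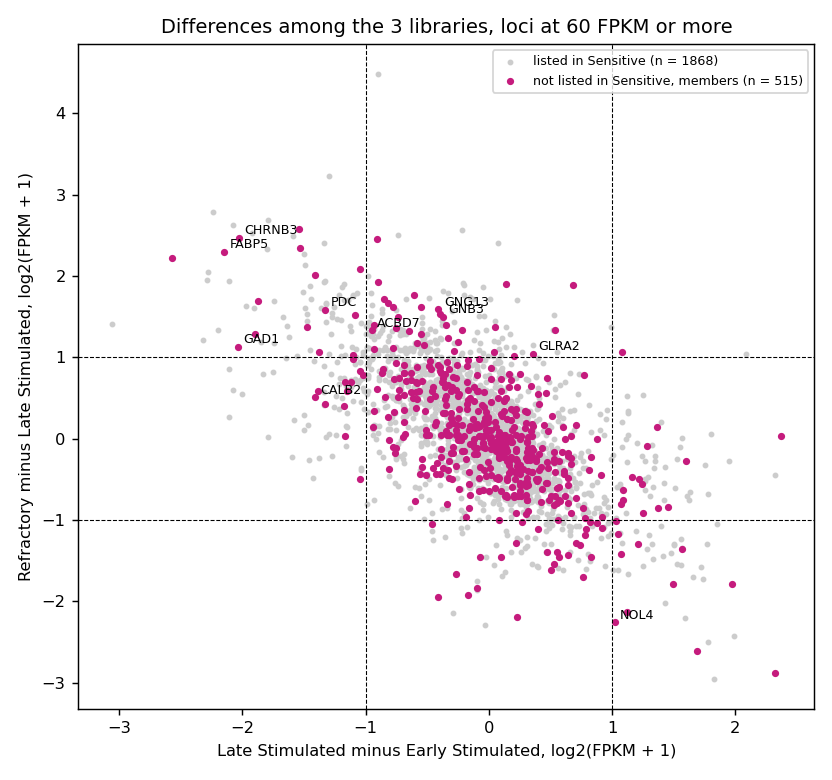
Log2(FPKM + 1) differences of Refractory minus Late Stimulated (vertical) against Late Stimulated minus Early Stimulated (horizontal) for the 515 loci and the 1868 listed loci at 60 FPKM or more. Dashed lines mark 2-fold; the axes share the Late Stimulated library, so a slope downwards follows from the plot itself, and labelled symbols are those past 2-fold in either comparison.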

How the data were processed

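Each of the 4 libraries, 1 per testicular state, had 1 deposited transcript file. Per the file headers, StringTie 1.3.3b assembled each library on its own, with Ensembl 89 gene models of the collared flycatcher (FicAlb_1.4) as a guide, and unmatched transcripts were kept. The submitters' processing notes name Trimmomatic. An aligner was not given in the sources used. The deposited values are FPKM, TPM and coverage per transcript, and coverage per exon, and other columns hold no count or score used here. The command line in the Sensitive file header abbreviates the state differently from its title.

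Loci were built and summed with Python 3.11.15, pandas 2.3.3 and numpy 2.4.6, and figures were drawn with matplotlib 3.10.9. Aligned bases came from coverage divided by FPKM, which was constant within a file. Differences are on the log2(FPKM + 1) scale, which understates changes of low loci, and a difference of 1 was counted. The code was tested on simulated data. There is 1 library per state, so no test was run.

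Members and lists were chosen with earlier results of these data known. Named loci are up to 30 with a symbol, the 12 highest unmatched, the 4 nearest the threshold on each side, the 5 highest and lowest in 2 comparisons, those with most transcripts or exons (3 each) and the 3 closest runs. Genes neighbouring a locus were named after their values were seen. Exon coverage as a basis for choosing loci, and the absence of Sensitive transcripts within 5 kb, were added after the data were seen. Some named genes and the loci past them are not reported here singly, while counts keep them. No genome sequence was used, so no sequence is printed.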

Additional observations from a re-analysis of the deposited data

How the results depend on the processing

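The number of loci depends most on the level asked for. It was 1286 at 30 FPKM and 167 at 120 FPKM, against 515 at 60, and from 372 to 661 under the other settings, which were TPM, the highest transcript, exon coverage (394), a coverage minimum, other merging of strands and exons, leaving out the Early Stimulated, Late Stimulated or Refractory library, and no Sensitive transcript within the span, 1 kb or 5 kb. At 30 and 120 FPKM, 26.1% and 19.4% of loci had no Sensitive transcript. With none within 1 kb or 5 kb, the shares were 18.6% and 15.6%. Single-exon loci numbered 578 and 91 at 30 and 120 FPKM, loci with a symbol 63 and 14, and loci with a Sensitive transcript within 5 kb 388 and 40. The last count was 72 with none allowed within 1 kb and, by construction, 0 with none within 5 kb.

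Among the 167 loci at 120 FPKM or more, 3 were higher and 10 lower in Late than in Early Stimulated. The counts were 14 and 7 in Refractory against Late Stimulated, and 5 and 3 in Refractory against Early Stimulated. No share over other loci was computed at 120 FPKM, so no direction is read from these counts. On exon coverage, 9 and 10 loci differed between Late and Early Stimulated and 9 and 11 between Refractory and Early Stimulated. Of 47 named differences of 2-fold or more, exon coverage left 13 past 2-fold, brought 25 below it and reversed 9. For Late minus Early Stimulated, the reversed values were 0.15 at JH603335.1:40318, -0.10 at JH603212.1:1457008, -0.78 for NOL4 and 0.05 at JH603190.1:4439197. For Refractory minus Late Stimulated they were -0.63 for GAD1, -0.37 at JH603365.1:301456, 0.51 for NOL4, -0.81 at JH603190.1:4439197 and -0.05 for GLRA2. The cause was not tested. TPM, median of ratios scaling and a pseudocount of 5 each brought 2 of the 47 below 2-fold. The median over all loci of Late minus Early Stimulated was -0.13, and -0.02 after median of ratios scaling.

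No paired analysis was possible because each state has 1 library, and leaving out a replicate was not possible for the same reason. The Sensitive listing floor limits what absence means for unmatched loci, and names come from another species.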

Other observations

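Fatty acid-binding proteins of 2 kinds lay near each other with opposite listing, a pair chosen after their values were seen. FABP5, at JH603220.1, 5027825 to 5033981, had no Sensitive transcript and 332, 74.2 and 368 FPKM in Early Stimulated, Late Stimulated and Refractory. FABP4, which carries fatty acids in adipocytes and macrophages, lay 72.3 kb away on the other strand, at 5106276 to 5110105. It had 538 FPKM in Sensitive and was listed in none of the other 3 libraries.

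A reference-matched locus without a symbol, ENSFALG00000016215, held 16 transcripts over the files at JH603300.1, 1514573 to 1605364. Its sums of 394, 311 and 322 FPKM became 109.6, 83.7 and 64.9 FPKM on exon coverage. Over all 515 loci, 1153 of 1545 values (74.6%) were within 1.5-fold of exon coverage.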
